A study of Drosophila melanogaster with 12 samples.

Results

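The mitochondrial ribosomal protein genes were described here by their Egg ChIP signal in a Drosophila melanogaster line of ovarian somatic cells. Members were the genes whose symbol begins with mRpL (large subunit) or mRpS (small subunit), a choice by name that used no measured value. This gave 73 of the 16757 genes in the deposited table, 47 of the large and 26 of the small subunit, with 96 transcript rows between them. All 96 rows carried the product name mitochondrial ribosomal protein and all 73 genes were annotated as protein-coding, so the label held.

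Chromatin immunoprecipitation followed by sequencing (ChIP-seq) recovers the DNA bound by a protein, and the input is the same chromatin before the antibody is added. The groups used were Egg ChIP and input of cells after knockdown of egg for 4 days (siEgg), and Egg ChIP and input of cells after knockdown of EGFP for 4 days (siEGFP), the control, since flies have no such gene. All were ovarian somatic cells (OSCs), a line grown from somatic cells of the fly ovary, and all were crosslinked with formaldehyde. The series lists 12 samples, 2 in each of these 4 groups and 1 in each group of the siPiwi and siWde knockdowns, and the 4 libraries of the siPiwi and siWde cells were not analysed here.

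Egg, or Eggless, the SETDB1 of flies, puts methyl groups on lysine 9 of histone H3 and acts with its cofactor Windei in transposon silencing downstream of Piwi. The mitochondrial ribosome is a separate machine from the cytoplasmic one. It translates the few proteins encoded in mitochondrial DNA, which are core subunits of the respiratory chain and ATP synthase. All its proteins are encoded in the nucleus, made in the cytoplasm and imported, and many descend from bacterial ribosomal proteins while others are found only in mitochondria.

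The table has 1 column per group with no replicate number, called a library below, although a column may hold 1 sample or a pool of both. There was thus no spread between replicates, no p-value was computed, and each value has a 95% interval that covers counting error only. Depths recovered from the values were 1698148 reads for siEgg ChIP, 2293964 for siEgg input, 1796866 for siEGFP ChIP and 2183061 for siEGFP input. Of these, 389967, 537505, 403222 and 546723 reads fell in transcript rows, in the same order. These are DNA reads, so they measure neither how far egg was depleted nor which cell type was grown, and neither could be checked here. Single members held few reads, 1 to 43 in siEgg ChIP, 0 to 33 in siEgg input, 1 to 114 in siEGFP ChIP and 0 to 34 in siEGFP input.

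Over all 73 members together, Egg ChIP reads exceeded input in the control cells and stood closer to input after egg knockdown. The summed reads were 694 in ChIP and 827 in input of siEgg cells, against 1204 in ChIP and 911 in input of siEGFP cells. Scaled to depth, this was a log2 ratio of ChIP over input of 0.18 (0.03 to 0.33) in siEgg cells and 0.68 (0.56 to 0.81) in siEGFP cells, or 1.13-fold and 1.61-fold. The difference between these ratios was -0.50 (-0.69 to -0.31). In the same libraries the 16522 other genes with reads had summed ratios of -0.03 in siEgg and -0.16 in siEGFP cells, a difference of 0.13 (0.12 to 0.14). The members thus stood above these genes in both cultures, and their difference had the opposite sign. Other genes with rows of up to 1000 bases moved the same way as the members. They differed by -0.22 up to 500 bases, -0.16 over 500 and up to 750, and -0.14 over 750 and up to 1000 bases. The sign over all genes also depended on scaling. The median difference over all genes tested was 0.22 as reported and -0.04 with each culture centred on its median. The members' excess over input in siEgg cells was small. It was 0.13 (-0.02 to 0.28) without mRpL27 and 0.13 (-0.02 to 0.29) without mRpS5, and with both inputs pooled it was 0.074 (-0.05 to 0.20). In siEGFP cells the ratio was 0.56 (0.43 to 0.69) without mRpL27 and 0.65 (0.52 to 0.77) without mRpS5.

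Both subunits, assigned by gene symbol alone, showed the difference. The small subunit here includes mRpS30 and mRpS18A, whose mammalian counterparts are found in the large subunit. Large subunit genes had a summed log2 ratio of 0.09 (-0.10 to 0.28) in siEgg and 0.60 (0.44 to 0.76) in siEGFP cells. Small subunit genes had 0.33 (0.09 to 0.57) in siEgg and 0.83 (0.62 to 1.04) in siEGFP cells. The difference between cultures was -0.51 (-0.75 to -0.26) for the large and -0.50 (-0.81 to -0.18) for the small subunit, and the intervals of the subunits overlapped in each culture.

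For single genes, enrichment was the log2 ratio of ChIP over input in RPKM (a density per row length and depth), with 0.7 RPKM added to each. A gene was tested if 2 or more libraries held at least 10 reads of it, and it was called enriched or depleted if the ratio was at least 2-fold and its counting interval excluded equality. The test covered 12594 genes and 51 of the 73 members, 34 of the large and 17 of the small subunit. Of these 51 members, 15 passed the filter without 10 reads in each input, and such a gene can pass through the library in which it is high. In siEGFP cells 11 of the 51 were called enriched, where 5.69% of all genes tested were, and 2 were called depleted, where 7.56% of all genes were. Among the 36 members with at least 10 reads in each input, 6 were called enriched, against 4.15% of all genes so filtered. The median over the tested members was 0.26 in siEGFP cells, against -0.29 over all genes tested, and 31 of 51 lay above 0 where 32.2% of all genes did. These values include members that passed through a library in which they are high. Over the 36 members whose inputs each held at least 10 reads the median was -0.02, against -0.32 over all genes so filtered. Of these members, 17 of 36 lay above 0, and the share of all genes so filtered above 0 is not given here. In siEgg cells 3 of 51 were called enriched (1.30% of all genes) and 1 depleted (1.13% of all genes), with a median of 0.10 against -0.04 over all genes.

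**Figure D1:**
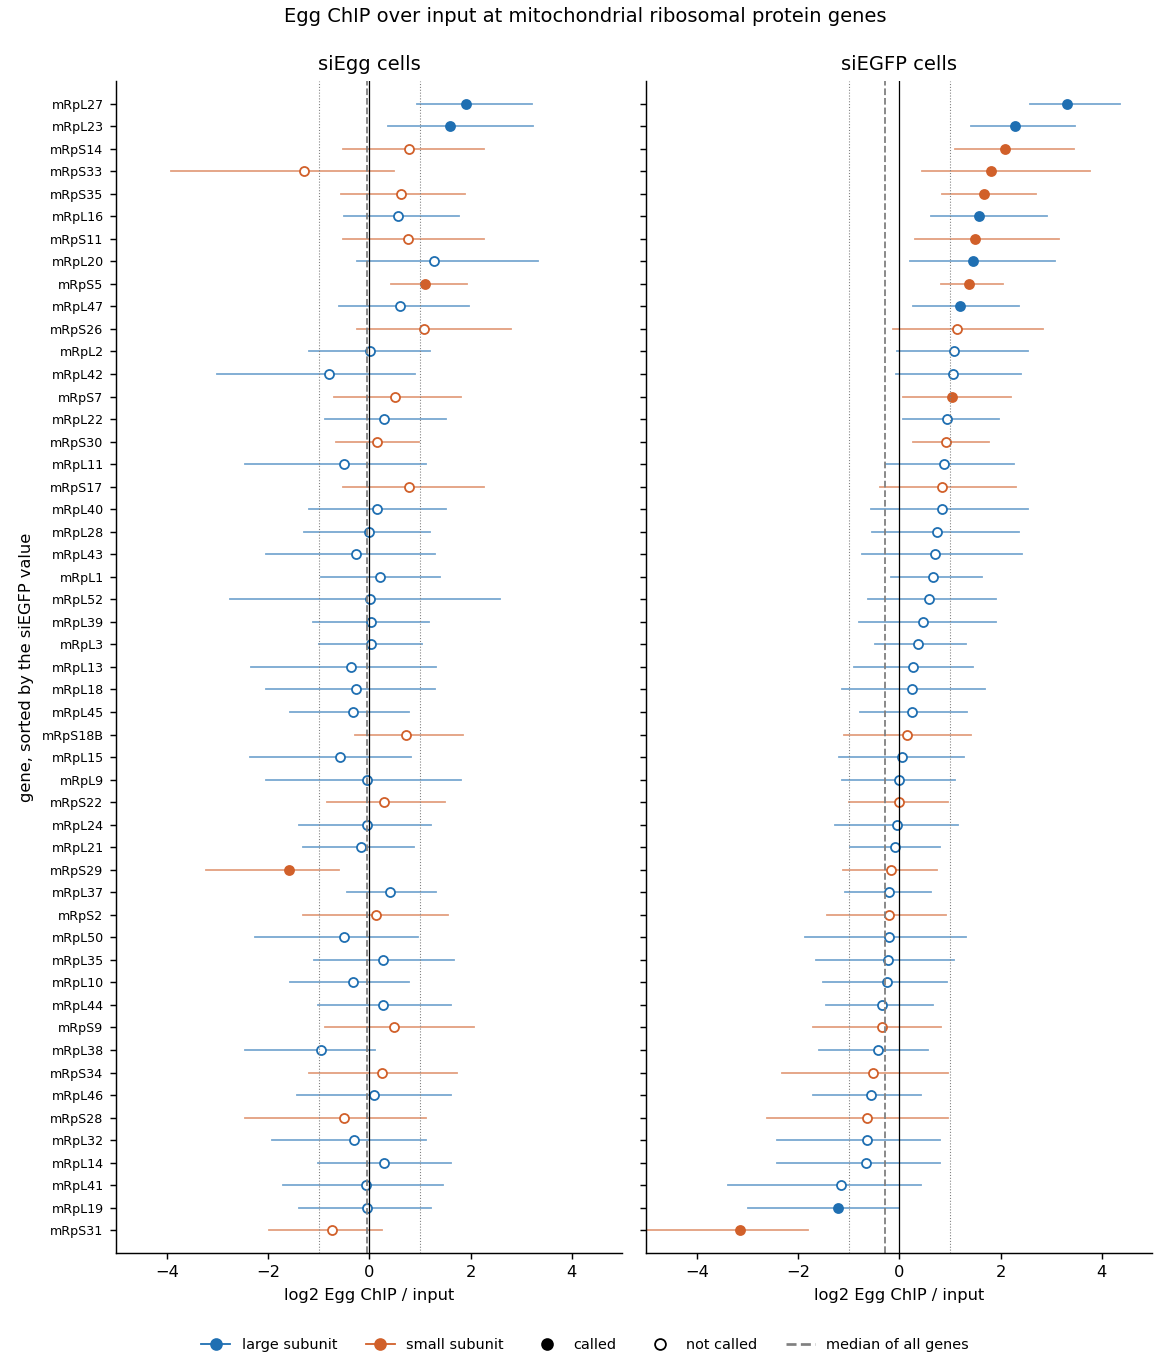
Log2 Egg ChIP over input (x axis) of the 51 tested mitochondrial ribosomal protein genes (rows) in siEgg cells on the left and siEGFP cells on the right, with 95% counting intervals as lines. By symbol, blue genes belong to the large and orange to the small subunit. Filled points were called, dotted lines mark a 2-fold ratio and the dashed line is the median of all genes tested (-0.04 in siEgg, -0.29 in siEGFP). The interval of mRpS31 in siEGFP cells runs past the left edge. The upper genes stand near or above 2-fold in siEGFP cells. Rows are sorted by the siEGFP value, so lower siEgg values of the upper genes carry no weight of their own. The genes mRpL27, mRpL23 and mRpS5 were called enriched in both cultures.

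Among large subunit genes, mRpL27 had the highest enrichment of the members in both cultures. Its bacterial counterpart reaches to the peptidyl transferase centre, where amino acids are joined. The gene lies at 2L:4458595-4459638 (dm6) and had 30 ChIP and 10 input reads in siEgg cells, against 114 ChIP and 13 input reads in siEGFP cells. As densities these were 27.1 and 6.69 RPKM in siEgg cells and 97.4 and 9.14 RPKM in siEGFP cells. The siEGFP ChIP library thus stood far above the other 3, and the siEgg ChIP library above both inputs. Enrichment was 1.91 (0.95 to 3.22) in siEgg and 3.32 (2.58 to 4.37) in siEGFP cells, a difference of -1.41 (-2.70 to -0.11). The difference was -0.56 (-1.86 to 0.74) under quantile scaling and -1.30 (-3.10 to 0.51) with the row with most reads, neither of which is a call.

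The gene mRpL23 (3L:2372844-2373704), whose bacterial counterpart sits at the exit of the peptide tunnel, had 17 ChIP and 7 input reads in siEgg cells, against 47 ChIP and 11 input reads in siEGFP cells. Both ChIP libraries were above both inputs, with enrichment of 1.59 (0.37 to 3.23) in siEgg and 2.28 (1.41 to 3.47) in siEGFP cells. Its difference between cultures, -0.70 (-2.24 to 0.85), was within counting error.

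The other 3 enriched large subunit genes were called in siEGFP cells and not in siEgg cells. For mRpL16, whose bacterial counterpart contacts the incoming tRNA, there were 16 ChIP and 14 input reads in siEgg cells, against 27 ChIP and 10 input reads in siEGFP cells, with log2 values of 0.57 (-0.50 to 1.77) in siEgg and 1.58 (0.62 to 2.93) in siEGFP cells. The siEGFP ChIP was the high library. For mRpL20, whose bacterial counterpart acts in assembly of the large subunit, there were 10 ChIP and 5 input reads in siEgg cells, against 17 ChIP and 7 input reads in siEGFP cells. The log2 values lay within each other's intervals, 1.28 (-0.25 to 3.33) in siEgg and 1.45 (0.22 to 3.07) in siEGFP cells, and the siEgg interval contained 0. The gene mRpL20 passed the read filter only through its ChIP libraries, which include the library that makes its call. For mRpL47, the counterpart of bacterial L29, there were 13 ChIP and 11 input reads in siEgg cells, against 26 ChIP and 13 input reads in siEGFP cells, and the log2 values were 0.61 (-0.60 to 1.98) in siEgg and 1.20 (0.27 to 2.36) in siEGFP cells. Its siEGFP ChIP was the 1 library above the rest, and its value fell short of 2-fold with a larger pseudocount (0.95) and under quantile scaling (0.99).

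In the small subunit, mRpS5 was the member with most input reads in siEGFP cells and was called enriched in both cultures. Its bacterial counterpart takes part in decoding. Its locus, 3L:24537236-24543534, lies towards the centromere of the arm and spans 6299 bases, while its rows average 1093 bases. It had 43 ChIP and 26 input reads in siEgg cells, against 75 ChIP and 34 input reads in siEGFP cells, so both ChIP libraries were above both inputs. Enrichment was 1.11 (0.42 to 1.92) in siEgg and 1.38 (0.82 to 2.05) in siEGFP cells, and the difference was -0.27 (-1.18 to 0.64). Neither call held throughout. In siEGFP cells it was lost under quantile scaling, at 0.72, and in siEgg cells with a larger pseudocount, at 0.94, and with pooled inputs, at 0.88 (0.32 to 1.51).

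The next small subunit genes had ChIP above input mainly in siEGFP cells. The rRNA-binding head protein gene mRpS14 (X:19479382-19480238) had 12 ChIP and 9 input reads in siEgg cells, against 34 ChIP and 9 input reads in siEGFP cells, and log2 values of 0.78 (-0.52 to 2.28) in siEgg and 2.08 (1.11 to 3.44) in siEGFP cells. The gene mRpS35, for a subunit found only in mitochondria, had 14 ChIP and 12 input reads in siEgg cells, against 41 ChIP and 15 input reads in siEGFP cells, and log2 values of 0.62 (-0.56 to 1.90) in siEgg and 1.67 (0.85 to 2.69) in siEGFP cells. In both genes the siEGFP ChIP was the single high library and the other 3 lay close together. With 9 reads in each input, mRpS14 passed the read filter only through its ChIP libraries, which include the library that makes its call. For mRpS11, a platform protein, there were 12 ChIP and 9 input reads in siEgg cells, against 18 ChIP and 7 input reads in siEGFP cells, with log2 values of 0.77 (-0.52 to 2.28) in siEgg and 1.50 (0.32 to 3.15) in siEGFP cells. The gene mRpS11 also passed the filter only through its ChIP libraries. For mRpS7, which organizes the head of the subunit in bacteria, there were 13 ChIP and 12 input reads in siEgg cells, against 23 ChIP and 13 input reads in siEGFP cells, with log2 values of 0.50 (-0.70 to 1.81) in siEgg and 1.03 (0.06 to 2.21) in siEGFP cells. The last, mRpS7, was the called gene nearest to the 2-fold threshold and lost its call with a larger pseudocount (0.82) and under quantile scaling (0.85).

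Just outside the call in siEGFP cells stood genes of either kind of shortfall. The mitochondria-specific mRpS26 (1.15), mRpL2 (1.07), whose bacterial counterpart lies near the peptidyl transferase centre, and mRpL42 (1.07) passed 2-fold, but their intervals reached -0.12, -0.05 and -0.06. The tunnel protein gene mRpL22 at 0.94 (0.08 to 1.96) and mRpS30 at 0.93 (0.27 to 1.77) had intervals above 0 and ratios under 2-fold. The mammalian counterpart of mRpS30 is found in the large subunit despite its name. In all, 13 of the 51 tested members had an interval above 0 in siEGFP cells, where 8.53% of all genes tested did, and 36 had one that contained 0.

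At the low end, mRpS31 (3L:16005193-16006599), for a mitochondria-specific small subunit protein, had 11 ChIP and 26 input reads in siEgg cells, against 1 ChIP and 26 input reads in siEGFP cells. Its log2 values were -0.73 (-1.97 to 0.26) in siEgg and -3.14 (-9.78 to -1.81) in siEGFP cells, and it was called depleted in siEGFP cells on that single ChIP read. The subunit-interface protein gene mRpL19 had 10 ChIP and 14 input reads in siEgg cells, against 6 ChIP and 19 input reads in siEGFP cells. It was called depleted in siEGFP cells at -1.21 (-3.00 to -0.00), an interval that ended at the edge of 0, and had -0.05 (-1.38 to 1.22) in siEgg cells. The siEGFP call was lost with a larger pseudocount (-0.82), under quantile scaling (-0.85), after centring (-0.92) and with pooled inputs (-0.99). These were the largest positive differences among members, 2.41 (-0.16 to 4.99) for mRpS31 and 1.17 (-0.55 to 2.89) for mRpL19, followed by mRpL41 at 1.09, mRpL14 at 0.94 and mRpS9 at 0.84, and none was called. With mRpL32, at -0.64, mRpL41 (-1.16) and mRpL14 (-0.65) were also among the 5 lowest in siEGFP cells, with intervals that contained 0.

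Of the 22 members outside the test, 5 had a counting interval above 0 in siEGFP cells. For mRpS18A, whose mammalian counterpart is found in the large subunit, there were 5 ChIP and 2 input reads in siEgg cells, against 31 ChIP and 9 input reads in siEGFP cells. The gene mRpL33 had 4 ChIP and 3 input reads in siEgg cells, against 19 ChIP and 3 input reads in siEGFP cells, and mRpS25 had 6 ChIP and 5 input reads in siEgg cells, against 18 ChIP and 7 input reads in siEGFP cells. The siEGFP ChIP was the high library in all 3. The gene mRpS16 had 3 ChIP and 0 input reads in siEgg cells, against 9 ChIP and 1 input read in siEGFP cells. For mRpL53 there were 2 ChIP and 4 input reads in siEgg cells, against 6 ChIP and 0 input reads in siEGFP cells. Set against a floor of 3 input reads in the library the siEGFP ratio was 2.43-fold, and its lower counting limit on the log2 scale was 0.52. Its span is the same as that of CG33155, inside the AGO1 locus, but their reads differed. CG33155 had 14 ChIP and 12 input reads in siEgg cells, against 7 ChIP and 18 input reads in siEGFP cells. How reads were divided between them is not given in the sources used here. Summed over the 22 untested members, the log2 ratio was 0.09 (-0.30 to 0.47) in siEgg and 0.75 (0.44 to 1.06) in siEGFP cells, a difference of -0.66 (-1.14 to -0.19).

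The comparison of cultures asked where the ChIP signal was lower once egg had been knocked down. In siEgg relative to siEGFP cells, 3 of the 51 tested members were called lower, where 3.27% of all genes tested were, and 0 were called higher, where 4.83% of all genes were. Differences lay below 0 in 36 of the 51, where 37.1% of all genes did, and their median was -0.43 against 0.22 over all genes tested. With at least 10 reads in each input, 22 of 36 lay below 0, with a median of -0.28 against 0.23 over all genes so filtered. The share of all genes so filtered that lay below 0 is not given here. Of these 36 members, 2 were called lower, where 2.69% of all genes so filtered were. Over 500 and up to 750 bases, 14 of 19 members and 53.5% of other genes lay below 0. Over 750 and up to 1000 bases these were 10 of 14 and 46.0%, and over 1000 and up to 1500 bases 10 of 16 and 41.8%. The contrast in these bands was smaller than that with all genes. By row length, 14 of all 100 tested genes of up to 500 bases, 8.84% of those over 500 and up to 750 bases and 4.24% of those over 1000 and up to 1500 bases were called lower, and the members called lower in these bands were 1 of 1, 1 of 19 and 1 of 16, so the members' share did not stand out beside genes of their length. The split among all genes depended on scaling. Centring each culture on the median of all genes gave 761 lower and 231 higher genes, against 412 lower and 608 higher without it, and in siEGFP cells it gave 1159 enriched and 311 depleted genes, against 716 and 952. Centred in this way, 5 members were lower, where 6.04% of all genes were, and 0 higher. Without use of the inputs, 8 members had lower siEgg than siEGFP ChIP, against 4.69% of all genes, and the summed difference was -0.71 (-0.85 to -0.58).

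**Figure D2:**
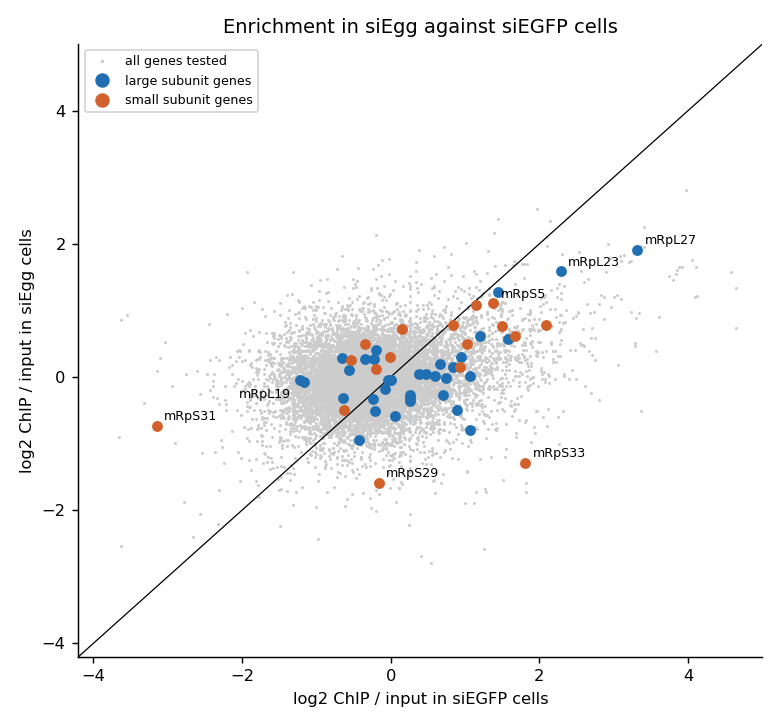
Log2 Egg ChIP over input in siEGFP cells (x axis) and in siEgg cells (y axis) for the 12594 genes tested in grey, with large subunit genes in blue and small subunit genes in orange. The line marks equal values, and 36 of the 51 members lie below it. Genes called lower in siEgg, or called enriched or depleted in siEgg, or depleted in siEGFP, are named.

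The 3 members called lower were mRpL27, described above, mRpS33 and mRpS29. The mitochondria-specific small subunit gene mRpS33 (3R:16436045-16436597) had 3 ChIP and 11 input reads in siEgg cells, against 16 ChIP and 5 input reads in siEGFP cells. ChIP was below input in the one culture and above it in the other. Its log2 values were -1.28 (-3.92 to 0.48) in siEgg and 1.81 (0.44 to 3.76) in siEGFP cells, which differed by -3.10 (-5.31 to -0.88). It passed the read filter only through siEGFP ChIP and siEgg input, the libraries whose high values make this difference, and it is not among the members with 10 reads in each input, so the size of its fall carries little weight. The gene mRpS29 (2R:22418937-22420376), whose mammalian counterpart DAP3 binds GTP, had 7 ChIP and 33 input reads in siEgg cells, against 19 ChIP and 26 input reads in siEGFP cells. It was called depleted in siEgg cells at -1.59 (-3.22 to -0.60) and was near input in siEGFP cells at -0.16 (-1.11 to 0.74). The difference, -1.43 (-2.85 to -0.01), ended close to 0, and without the inputs or with both pooled it was -1.17 (-2.39 to 0.04), and with a larger pseudocount -0.97 (-2.39 to 0.45), none of which is a call.

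Large differences that were not called include mRpL42 at -1.86 (-3.80 to 0.07), with 4 ChIP and 10 input reads in siEgg cells and 18 ChIP and 10 input reads in siEGFP cells. The gene of the stalk-base protein mRpL11 differed by -1.38 (-3.24 to 0.48). All 11 members enriched in siEGFP cells had lower siEgg values, and 7 of them fell under the 2-fold line, but they were chosen on siEGFP reads that also enter the difference, so this direction carries no weight of its own. Their medians were 0.77 in siEgg and 1.58 in siEGFP cells.

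Members with several transcript rows had reads assigned to each row, which does not locate the signal within the gene. The 18 such members had up to 4 rows, which overlap and share sequence, and how reads were divided among them is not given in the sources used here. For mRpL27 nearly all the excess was in its 896-base row, with 23 ChIP and 4 input reads in siEgg cells, against 100 ChIP and 7 input reads in siEGFP cells. That row held 87.7% of the siEGFP ChIP reads of the gene and 45.9% of its summed row length. The rows of 547 and 511 bases had 4 and 3 ChIP reads in siEgg cells, against 7 ChIP reads each in siEGFP cells, with 2 to 4 reads in every input. By reads, the 896-base row was at 2.96 (1.41 to 4.95) in siEgg and 4.12 (3.02 to 5.47) in siEGFP cells, above both shorter rows, whose intervals contained 0 in both cultures.

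For mRpL23, the 597-base row had 4 ChIP and 0 input reads in siEgg cells, against 17 ChIP and 0 input reads in siEGFP cells. Its lower counting limit on the log2 scale was -0.17 in siEgg cells, so that ratio could be level with input, and 2.33 in siEGFP cells. Its 622-base row had 6 ChIP and 3 input reads in siEgg cells, against 15 ChIP and 3 input reads in siEGFP cells, with an interval that contained 0 in siEgg cells, and the rows of 591 and 560 bases had intervals that contained 0 in both cultures. For mRpS14 both rows were above input in siEGFP cells, the 797-base row with 21 ChIP and 7 input reads and the 476-base row with 13 ChIP and 2 input reads. For mRpS5 the 479-base row stood out, with 8 ChIP and 1 input read in siEgg cells, against 23 ChIP and 4 input reads in siEGFP cells. Its rows of 1422 and 1379 bases had siEGFP log2 ratios of 1.39 (0.39 to 2.46) and 0.78 (-0.18 to 1.77), against 2.80 (1.26 to 4.80) for the 479-base row. When each gene was represented by its single row with most reads, mRpS5 was at 0.24 (-0.80 to 1.32) in siEgg cells, so its call there rested on the other rows.

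**Figure D3:**
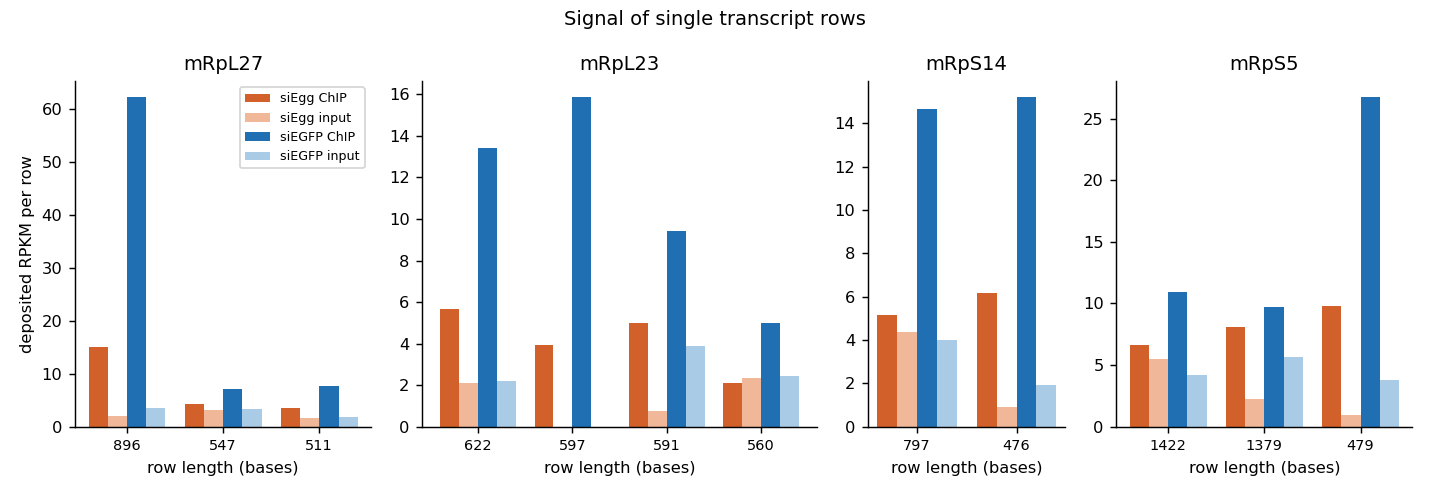
Deposited RPKM (y axis, a separate scale in each panel) of every transcript row of mRpL27, mRpL23, mRpS14 and mRpS5, ordered by row length in bases (x axis), in siEgg ChIP, siEgg input, siEGFP ChIP and siEGFP input. In mRpL27 the 896-base row reaches 62.1 RPKM in siEGFP ChIP, against 7.12 and 7.62 RPKM in the shorter rows.

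Mitochondrial ribosomal protein genes are short, and short rows were more often enriched across the whole table. The median row length was 738 bases for members and 1389 bases for the other genes. In siEGFP cells 23.0% of all tested genes with rows of up to 500 bases were called enriched, 17.1% of those over 500 and up to 750 bases, 11.3% of those over 750 and up to 1000 bases, 7.69% of those over 1000 and up to 1500 bases, 3.75% of those over 1500 and up to 2500 bases and 1.66% of longer ones. The members called enriched in the first 5 of these bands were 1 of 1 (mRpS33), 6 of 19, 3 of 14, 1 of 16 and 0 of 1. Among the enriched members, 5 lacked 10 reads in each input. These were mRpS33 and, with rows over 500 and up to 750 bases, mRpL20, mRpL23, mRpS11 and mRpS14. Such genes can pass the filter through a library in which they are high, so the member counts in these bands carry little weight. The members' summed ratio was set against that of the other genes within each band. From 500 to 750 bases, 33 members had a summed log2 ratio of 0.39 (0.14 to 0.64) in siEgg and 1.05 (0.85 to 1.25) in siEGFP cells, and the other 2021 genes had 0.05 (0.02 to 0.08) in siEgg and 0.21 (0.18 to 0.24) in siEGFP cells. The difference between cultures was -0.66 (-0.98 to -0.34) for these members and -0.16 (-0.20 to -0.12) for the other genes of that length. From 750 to 1000 bases, 16 members had 0.19 (-0.11 to 0.49) in siEgg and 0.46 (0.19 to 0.73) in siEGFP cells, where the other genes had 0.05 in siEgg and 0.19 in siEGFP cells, so the intervals of members and others met in both cultures. From 1000 to 1500 bases, 16 members had 0.00 (-0.26 to 0.25) in siEgg and 0.19 (-0.04 to 0.42) in siEGFP cells, where the others had 0.02 in siEgg and 0.01 in siEGFP cells. The members' excess over other genes of their length was thus clear of counting error in siEGFP cells in the bands up to 750 bases. It was also clear there for mRpS30, the 1 member over 1500 bases. In siEgg cells it was clear in the band from 500 to 750 bases, which holds mRpL27. Without mRpL27 the siEgg ratio of all members was 0.13 (-0.02 to 0.28). The band's ratios and difference were not recomputed without that gene, so how far they rest on it was not tested. The part of row length in these values was not tested.

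**Figure D4:**
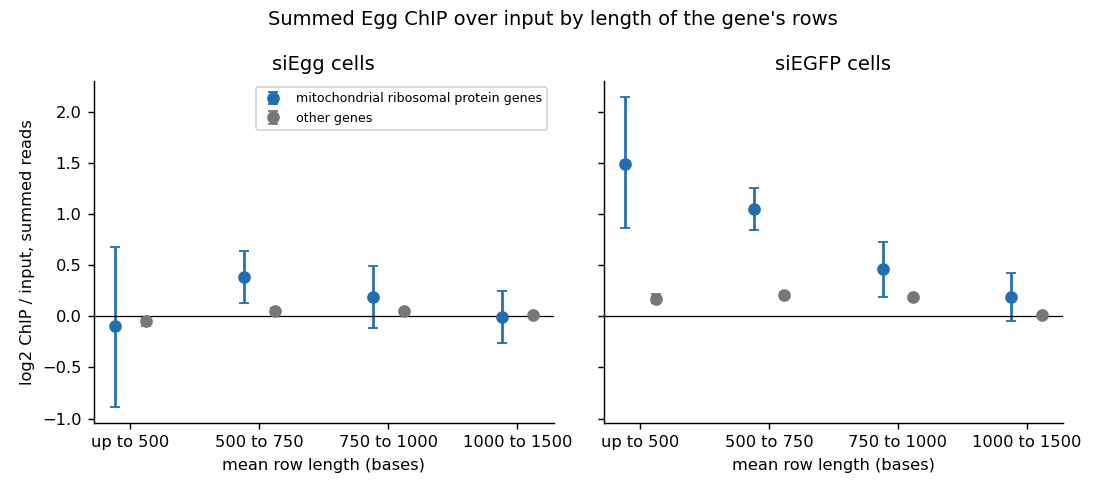
Summed log2 Egg ChIP over input (y axis) by mean row length of the gene in bases (x axis), in siEgg cells on the left and siEGFP cells on the right, for mitochondrial ribosomal protein genes in blue and the other genes in grey, with 95% counting intervals. In siEGFP cells the members fall with row length, 1.50 at up to 500 bases, 1.05 at 500 to 750, 0.46 at 750 to 1000 and 0.19 at 1000 to 1500, while the other genes stay at or under 0.21.

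ChIP reads have no strand, so members that overlap another gene may share reads with it. Overlap was taken between whole gene spans, and how reads were divided between overlapping genes is not given in the sources used here. The split below is thus by position and not by shared reads. In RefSeq, on the same build, 43 members overlapped another gene and 30 did not. Members free of overlap had a summed log2 ratio of 0.44 (0.23 to 0.66) in siEgg and 0.90 (0.73 to 1.08) in siEGFP cells. Overlapping members had -0.06 (-0.26 to 0.15) in siEgg and 0.46 (0.28 to 0.64) in siEGFP cells. The members free of overlap include mRpL27, the most enriched member, and their ratio was not recomputed without it. The difference between cultures was -0.46 (-0.74 to -0.19) without overlap and -0.51 (-0.78 to -0.24) with it. Of the 46 genes they overlapped, 42 were tested, with a median of -0.11 in siEGFP cells. In these cells 2 of the 42 were enriched, where 5.69% of all genes tested were. The 2 were CG8993, which shares 33 bases with mRpL23 and had 10 ChIP and 7 input reads in siEgg cells, against 41 ChIP and 13 input reads in siEGFP cells, and Rlb1, which shares 6 bases with mRpL47 and had 16 ChIP and 25 input reads in siEgg cells, against 22 ChIP and 8 input reads in siEGFP cells. Of the 11 enriched members, 5 overlapped another gene.

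Members lay on every large arm, 11 on X, 12 on 2L, 12 on 2R, 17 on 3L and 21 on 3R, and none on chromosome 4 or Y. In siEGFP cells the summed log2 ratio was above 0 on each, 0.86 on X, 1.01 on 2L, 0.39 (0.01 to 0.78) on 2R, 0.69 on 3L and 0.46 on 3R. The difference between cultures was below 0 beyond counting error on X (-0.68), 2L (-0.61), 2R (-0.80) and 3L (-0.43), and on 3R it was -0.25 (-0.62 to 0.12). In siEgg cells the members of 2R stood at -0.41 (-0.88 to 0.05), against 0.40 (0.04 to 0.76) on 2L, the arm of mRpL27.

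Genes of related function were read the same way, with the same controls. The mitochondrial ribosomal protein genes with other names, bonsai and tko, counterparts of bacterial S15 and S12, were not called. For tko there were 17 ChIP and 20 input reads in siEgg cells, against 37 ChIP and 24 input reads in siEGFP cells, with log2 values of 0.18 in siEgg and 0.86 in siEGFP cells. For bonsai there were 4 ChIP and 15 input reads in siEgg cells, against 13 ChIP and 16 input reads in siEGFP cells, with -1.25 in siEgg and -0.02 in siEGFP cells. Neither gene had a siEgg value above its siEGFP value. Genes that serve mitochondrial translation in other ways gave no enriched member. In siEGFP cells 5.69% of all genes tested were enriched and 7.56% depleted, and 3.75% of those over 1500 and up to 2500 bases were enriched. At such shares lists this small can hold none, so the absence of calls carries no weight of its own. Among the 10 mitochondrial translation factors, 0 were called in either direction, with medians of -0.16 in siEgg and -0.13 in siEGFP cells. Among the 16 mitochondrial aminoacyl-tRNA synthetases, 0 were enriched or depleted and AlaRS-m was called higher, where 4.83% of all genes tested were. AlaRS-m had 34 ChIP and 44 input reads in siEgg cells, against 19 ChIP and 50 input reads in siEGFP cells. The medians of the synthetases were 0.16 in siEgg and -0.50 in siEGFP cells. Of the 15 genes of mitochondrial DNA replication, transcription and RNA maturation, 13 were tested, 0 were enriched and 1 was lower, where 3.27% of all genes tested were lower. Medians of this list were 0.16 in siEgg and -0.28 in siEGFP cells. Rows of these genes were longer, with median lengths of 1619, 1988 and 1570 bases.

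The lists closest to the members in value had rows as short as theirs. Of 93 cytoplasmic ribosomal protein genes, 68 were tested and 23 were enriched in siEGFP cells. In these cells 5.69% of all genes tested were enriched, and 17.1% of those over 500 and up to 750 bases. The median row length of the cytoplasmic list was 714 bases, and its summed log2 ratios were 0.25 (0.13 to 0.37) in siEgg and 0.92 (0.81 to 1.02) in siEGFP cells. Of 91 nuclear genes of the respiratory chain and ATP synthase, 61 were tested and 19 were enriched in siEGFP cells, against the same shares. Their median row length was 695 bases, and summed log2 ratios were 0.12 (-0.00 to 0.24) in siEgg and 0.74 (0.63 to 0.84) in siEGFP cells. Called lower were 11 of 68 cytoplasmic ribosomal protein genes, 10 of 61 respiratory chain genes and 3 of 51 members, where 3.27% of all genes tested were. Over 500 and up to 750 bases, 8.84% of all tested genes were called lower. As among the members, genes of these lists can pass the read filter through a library in which they are high. The summed difference between cultures was -0.66 (-0.83 to -0.50) for the cytoplasmic ribosomal protein genes and -0.62 (-0.78 to -0.46) for the respiratory chain genes. For the members it was -0.50 (-0.69 to -0.31), and the intervals overlapped.

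**Figure D5:**
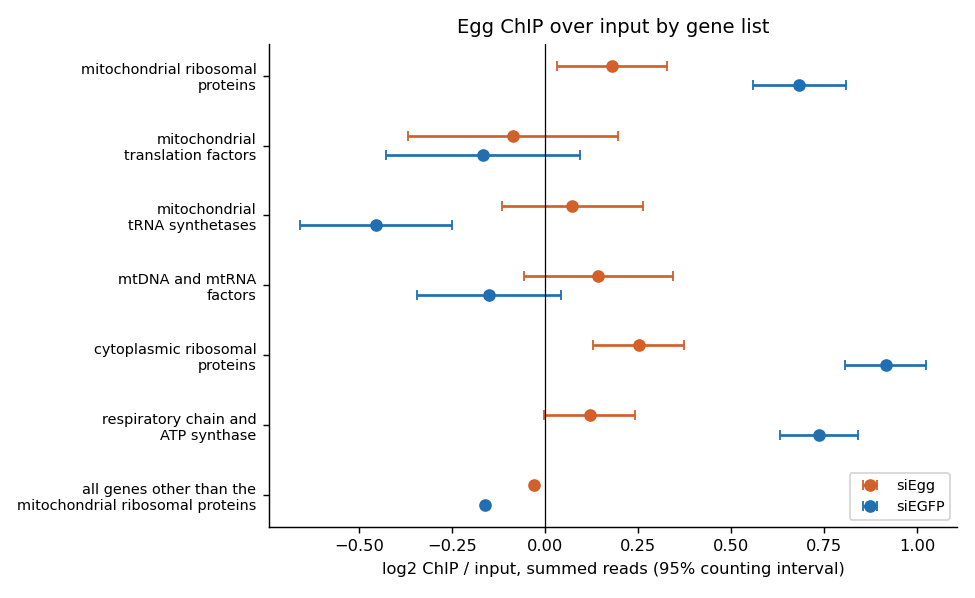
Summed log2 Egg ChIP over input (x axis) with 95% counting intervals for each gene list (rows), siEgg cells in orange above siEGFP cells in blue. Mitochondrial ribosomal proteins lie at 0.18 in siEgg and 0.68 in siEGFP cells, cytoplasmic ribosomal proteins at 0.25 in siEgg and 0.92 in siEGFP cells, and mitochondrial tRNA synthetases at 0.07 in siEgg and -0.45 in siEGFP cells.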

How the data were processed

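The deposited table holds, in 4 value columns, what the values show to be RPKM: low values are whole multiples of a step set by the row. The labels used here do not name the unit. Mapping used Bowtie2 2.2.4 and dm6, per the submitters' processing notes, and counting, read filters and pooling of samples are not given in the sources used here. Other value columns numbered 0.

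Whole reads were recovered from the RPKM, with the scale fixed on 3461 rows whose length equalled the span of the gene. Of 35327 transcript rows, the 34632 with reads all came out whole within 0.0001 reads, and the other 695 were 0. Rows were matched to RefSeq genes (35086 rows, 34925 by accession). The rows of a gene were summed, and its density is the summed reads over the mean row length. Of 16757 genes, 16595 had reads.

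The design foresaw replicated groups as a possibility. With 1 column per group, each gene has a log2 ratio with a pseudocount of 0.7 RPKM (set from the median input) and an exact Clopper-Pearson 95% interval on its reads. Intervals of differences between cultures are normal approximations on log counts to which 0.5 was added. A call needs a log2 size of at least 1 and an interval that excludes 0. A library at 0 reads was bounded by a floor of 3 reads. Summed reads use no pseudocount and no filter.

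Named with values were all called members, the 5 extremes of each comparison, those next to the threshold and those that overlap an enriched gene. The members, the 6 related lists and this rule were chosen with earlier results of these data known. The list entry sop was not found in the table. Alternatives were another pseudocount, scaling, read filter, input and choice of row. No sequences were used here. Calculations used Python 3.11.15 with numpy 2.4.6, scipy 1.17.1, pandas 2.3.3 and matplotlib 3.10.9, and the steps were tested on simulated data.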

Additional observations from a re-analysis of the deposited data

Results flagged for a closer look

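The gene mRpS33 was set apart because its ChIP lay on opposite sides of input in the cultures and the difference passed the call: 3 ChIP and 11 input reads in siEgg cells, against 16 ChIP and 5 input reads in siEGFP cells, a log2 difference of -3.10 (-5.31 to -0.88). It passed the read filter only through siEGFP ChIP and siEgg input, the libraries that make the difference. The interval covers counting error only, and with 1 library per group the difference was not tested between cultures.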

How the results depend on the processing

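No paired analysis was possible because the columns carry no replicate number, and for the same reason leaving out replicates and the replicate block were not run. The members' summed ratio in siEGFP cells stayed above 0, beyond counting error, and the summed difference below 0, under every alternative run, from 0.31 to 0.98 and from -0.76 to -0.32, except that with at least 20 reads in each input, which left 8 members, the difference was -0.34 (-0.75 to 0.07). The summed siEgg ratio was then -0.032, against 0.18 as reported, and 0.10 with the row with most reads, 0.074 with both inputs pooled and 0.13 without mRpL27 or without mRpS5. The pseudocount and no read filter do not alter sums. In siEGFP cells 17 members were enriched after centring (9.20% of all genes), 6 with at least 10 reads in each input (4.15%) and 1 with at least 20 (2.63%), against 11 as reported (5.69%). Depleted members there numbered 2 as reported (7.56% of all genes). They numbered 1 under the larger pseudocount (1.85%), quantile scaling (2.77%), centring (2.47%), pooled inputs (6.50%) and at least 20 reads (7.96%). Enriched members in siEgg numbered 1 with at least 20 reads (0.130%) and with the row with most reads (1.63%), against 3 as reported (1.30%). Lower members numbered 5 after centring (6.04% of all genes), 8 with pooled inputs and 8 without inputs (4.69% each) and 1 with at least 20 reads (2.30%), against 3 (3.27%). Leaving out mRpL27 or mRpS5, and at least 10 reads in each input, were added after the data were seen. Of the calls of single members, 120 of 137 recomputed values kept direction and call and 17 lost the call, of mRpL19, mRpS7 and mRpL47 in siEGFP, mRpS5 in both cultures, and the differences of mRpS29 and mRpL27. None reversed. Centring moved the median of all genes by 0.29 in siEGFP cells, and quantile scaling took it to -0.08. Members hold few reads, and that number limits every single-gene value. The causes were not tested.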

Other observations

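Among the genes of mitochondrial DNA replication, transcription and RNA maturation, the 1 called lower was mldr, for the nuclease subunit of mitochondrial RNase P, which cuts tRNAs out of mitochondrial transcripts. It had 27 ChIP and 50 input reads in siEgg cells, against 71 ChIP and 44 input reads in siEGFP cells, and log2 values of -0.42 in siEgg and 0.92 in siEGFP cells, which differed by -1.34 (-2.20 to -0.48). PolrMT, the mitochondrial RNA polymerase gene, had 61 ChIP and 70 input reads in siEgg cells, against 60 ChIP and 88 input reads in siEGFP cells, and log2 values of 0.21 in siEgg and -0.25 in siEGFP cells, and was not called.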
